A study of Mus musculus with 2 samples.

Results

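Ribosome biogenesis genes were followed across the epithelial cells of the developing hair follicle (HF). The 49 genes were chosen by symbol from a written list and made up 49 of the 32285 genes in the count matrices. By role, 6 act in transcription by RNA polymerase I, 8 are core or accessory proteins of small nucleolar ribonucleoproteins (snoRNPs), 4 are abundant or multifunctional nucleolar proteins, 18 assemble the small ribosomal subunit and 13 assemble the large subunit. The rule for the choice used no measured value, although it was written with earlier results of these data known. All 49 had more than 1000 UMIs (unique molecular identifiers, each counting 1 captured mRNA molecule once) in each library.

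Ribosomes are built in the nucleolus. RNA polymerase I transcribes the ribosomal RNA precursor, snoRNPs guide its chemical modification, and a large set of assembly factors folds and cleaves it while ribosomal proteins join the 2 subunits. The genes of this pathway are known targets of the MYC transcription factors, which bind the E-box CACGTG together with MAX, and demand for new ribosomes is high in growing and dividing cells such as the matrix cells at the base of the HF.

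Single-cell RNA sequencing libraries were made from back skin of mice at postnatal day 1. Both libraries carried K14-Cre, which the keratin 14 promoter drives in skin epithelium, and a Cre-dependent tdTomato reporter by which the cells were sorted; the PADI4 cKO library came from mice with floxed Padi4 alleles (Padi4 fl/fl) and the PADI4 WT library from WT mice, although the protocol text attached to both names the floxed genotype. The epidermis was peeled off with dispase beforehand, so the interfollicular epidermis was deliberately depleted. Each genotype was 1 library in 1 batch, the number of animals behind each library was not given in the sources used here, and no test between genotypes was therefore possible.

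After the filters, 8072 PADI4 WT and 7391 PADI4 cKO cells remained, with medians of 14669 and 16208 UMIs per cell, and 14 barcodes occurred in both libraries. Padi4 itself had 96 and 85 UMIs, which does not check the labels, because reads at the 3′ end do not show a deletion elsewhere in the gene. Transcripts that tell female from male cells were unevenly spread. In PADI4 WT, 26.1% of epithelial cells had Xist UMIs and none from Y-linked genes, and 62.4% had Y-linked UMIs and no Xist. In PADI4 cKO 98.3% were Xist-only, and 0 of 7304 were Y-only. The epithelial keratins Krt14 and Krt5 were at 1201 and 1387 CPM (UMIs scaled to a common library total) in PADI4 WT and at 814 and 1246 CPM in PADI4 cKO, while the leukocyte marker Ptprc was at 0.0158 and 0 CPM. RNA from outside the cells made up at most 7.50% of the PADI4 WT and 6.60% of the PADI4 cKO UMIs.

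Cells were assigned to 8 classes by marker genes that include no ribosome biogenesis gene, and 4285 of 7960 PADI4 WT and 4116 of 7304 PADI4 cKO epithelial cells received one. These were LPC-like (lower proximal cup), Med-like (medulla), IRS-like (inner root sheath), ORS-like (outer root sheath), uHF-like (upper HF), IFE-like (interfollicular epidermis) and SG-like (sebaceous gland) cells, and a class gated on germinative layer markers. That last class had none of its own markers among its 10 leading genes, which included the hair shaft genes Krt35, Dsg4 and Krt86, and it is called Dlx3/Msx2-high here. The Med-like cells lay mostly in the same clusters as the Dlx3/Msx2-high cells, and 45.6% and 50.6% of SG-like cells lay in a cluster that carried uHF markers. The IFE-like cells were not alike in the libraries: Krt1, a keratin of differentiating epidermis, was at 827 CPM in 298 PADI4 WT cells and at 106 CPM in 116 PADI4 cKO cells. In PADI4 WT 33.2% of them lay in a cluster that carried IFE markers, which held 171 PADI4 WT and 7 PADI4 cKO cells in all. The leading clusters of the PADI4 cKO IFE-like cells carried uHF markers (19.8% and 18.1% of them) or ORS markers (14.7%).

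The reference promoters of the genes were searched for the E-box, since these 6 letters are where a MYC and MAX pair can bind. RefSeq promoters of GRCm38.p6, 250 bases before to 50 bases after the start of transcription, were matched for 42 of the 49 genes. CACGTG, which reads the same on both strands, occurred in 8 of the 42 genes (19.0%). On a further list of ribosome biogenesis genes it occurred in 14 of 76 matched genes (18.4%), and in 8.09% of all 27025 genes with a promoter. A gene was counted if any of its promoters held the motif. The 8 matches are printed with up to 10 flanking bases, 5′ to 3′ on the gene's strand, with the motif in capitals:
Mybbp1a: cttctgagccCACGTGtttg
Nop2: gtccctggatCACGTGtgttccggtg
Pes1: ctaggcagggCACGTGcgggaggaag
Rrp7a: gcctgtgcacCACGTGtcctggaact
Tsr1: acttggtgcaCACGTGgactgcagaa
Utp18: gagcgccggtCACGTGgcttgcggcg
Utp20: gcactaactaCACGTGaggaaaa
Wdr43: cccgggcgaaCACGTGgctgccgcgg

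Most of these motifs were at the start of transcription. The Mybbp1a (chr11:72441357-72441376, plus strand), Pes1 (chr11:3963967-3963992, plus), Tsr1 (chr11:74898094-74898119, plus), Wdr43 (chr17:71616222-71616247, plus) and Utp20 (chr10:88826765-88826787, minus) motifs began 41, 3, 25, 18 and 38 bases into the transcript. Those of Utp18 (chr11:93885771-93885796, minus), Nop2 (chr6:125131813-125131838, plus) and Rrp7a (chr15:83122994-83123019, minus) began 20, 60 and 208 bases before it. A match is a description of the letters and does not show that a factor binds there.

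Levels by class were compared first, because the classes differ in growth and differentiation. The 49 genes together took 0.392% of all UMIs in ORS-like cells of PADI4 WT and 0.718% in Dlx3/Msx2-high cells, a 1.83-fold range, and the range in PADI4 cKO was 1.78-fold. The summed level in PADI4 WT was 7177 CPM in Dlx3/Msx2-high, 7041 in LPC-like, 6903 in Med-like, 6883 in IRS-like, 6097 in SG-like, 4792 in IFE-like, 4714 in uHF-like and 3923 CPM in ORS-like cells. In PADI4 cKO the same classes were at 7242, 7197, 7366, 7062, 6734, 5494, 4955 and 4129 CPM. The 4 matrix and inner follicle classes thus stood above the other classes in both libraries and ORS-like cells stood lowest, whereas the order among those 4 differed between the libraries. Within PADI4 WT the exact 95% Poisson intervals of Med-like (6836 to 6970 CPM) and IRS-like cells (6823 to 6944 CPM) overlapped, as did those of Dlx3/Msx2-high (7204 to 7279 CPM) and LPC-like cells (7153 to 7241 CPM) in PADI4 cKO. Such intervals cover counting error and not the spread between animals.

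**Figure D1:**
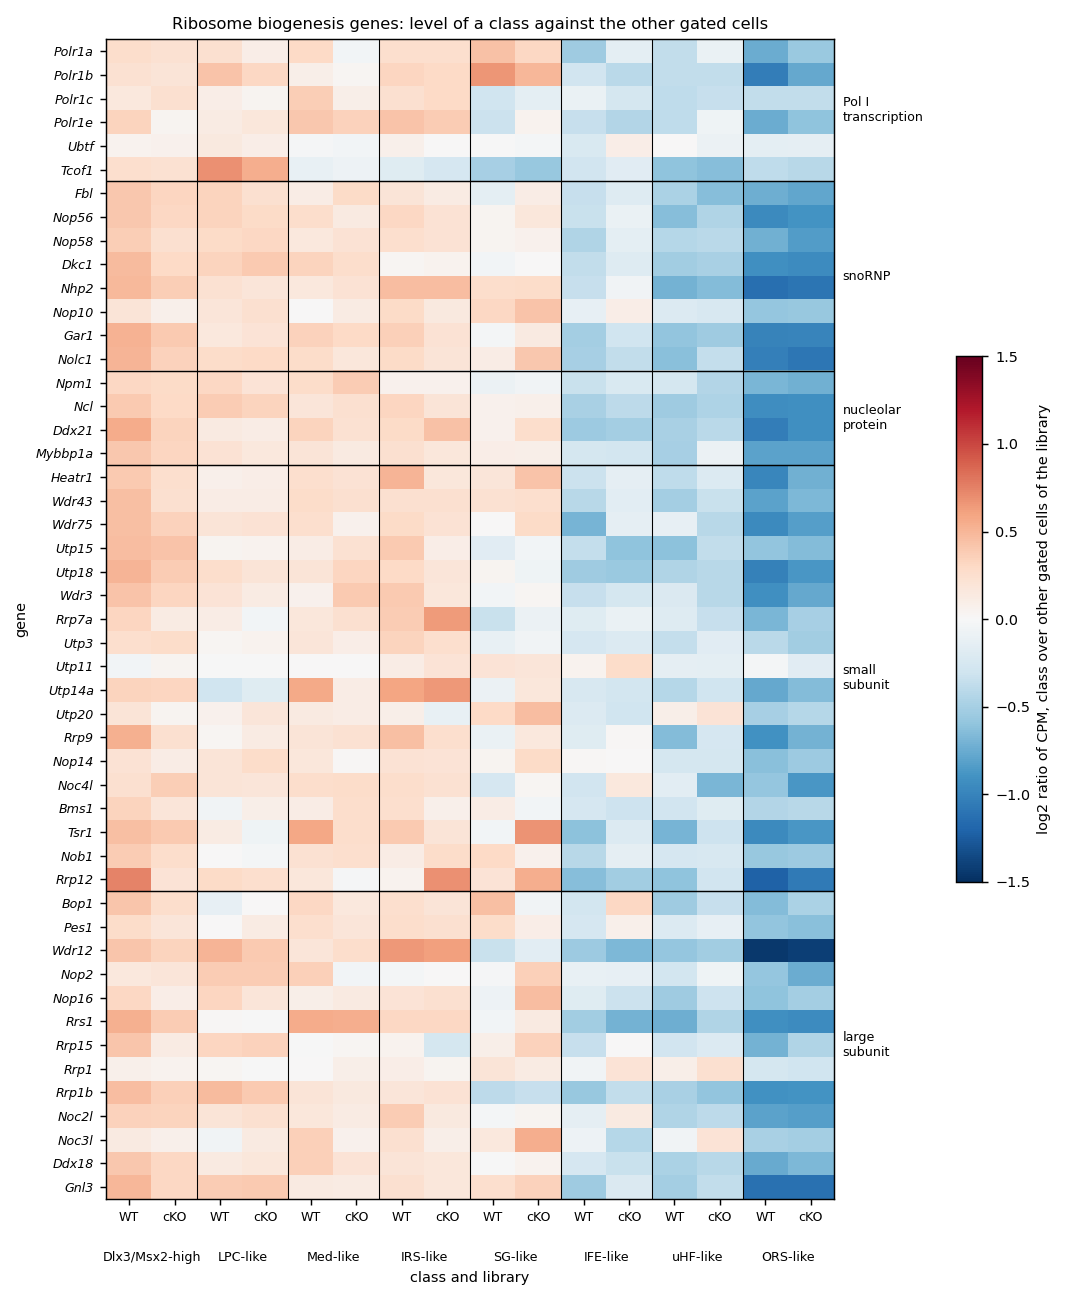
Heat map of the log2 ratio of CPM in a class over all other gated cells of the same library, 1 row per gene grouped by role and 1 column per class and library (WT, PADI4 WT; cKO, PADI4 cKO). The ORS-like columns are below 0 for every gene, from -1.44 (Wdr12) to -0.02 (Utp11) in PADI4 WT, and the Dlx3/Msx2-high columns are above 0 for 48 genes in both libraries.

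ORS-like cells had lower levels of all 5 role groups. Set against all other gated cells of the same library, all 49 genes were below 0 on the log2 scale in both libraries, with medians of -0.74 in PADI4 WT and -0.72 in PADI4 cKO beside medians of 0.0003 and 0.013 over all genes compared. In PADI4 WT 41 genes and in PADI4 cKO 39 genes were past -0.5, and 37 were past it in both. Over all genes compared, 17.5% and 18.6% were past -0.5. The 12 genes not past it in both libraries were Bms1, Bop1, Noc3l, Polr1c, Rrp1, Rrp15, Rrp7a, Tcof1, Ubtf, Utp11, Utp20 and Utp3. ORS-like cells were the lowest of the 8 classes in both libraries for 41 of the 49 genes. Of the 8 genes with the E-box printed above 6 were past -0.5 in both libraries, from -0.59 for Nop2 to -1.01 for Utp18 in PADI4 WT. Of the other 41, which include the 7 with no matched promoter, 31 were.

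Taken as a sum, the RNA polymerase I group varied least between classes. Its 6 genes summed to 289 CPM in ORS-like and 424 CPM in LPC-like cells of PADI4 WT, and to 307 and 423 CPM in PADI4 cKO. Gene by gene, their log2 ranges over classes (mean of both libraries) ran from 0.21 for Ubtf to 1.30 for Polr1b. Ubtf, the factor that opens ribosomal RNA genes for the polymerase, was nearly level: it ranged from 124 CPM in IFE-like to 158 CPM in LPC-like cells of PADI4 WT, and from 131 CPM in ORS-like to 151 CPM in IFE-like cells of PADI4 cKO. Tcof1, encoding treacle, a nucleolar partner of the polymerase, was instead highest in LPC-like cells, at 144 and 153 CPM, and lowest in uHF-like cells, at 65.9 and 75.1 CPM. Its LPC-like level over the other gated cells was 0.69 and 0.54 on the log2 scale, which made it the 1 gene past 0.5 there in both libraries. In all 2 and 1 of the 49 genes were past 0.5 in LPC-like cells, beside 7.80% and 8.76% of all genes compared. Polr1b, a core subunit of the enzyme, was highest in SG-like cells, at 24.3 and 24.0 CPM, and lowest in ORS-like cells, at 8.63 and 11.2 CPM. About 23.2% of the 31-base stretches at the end of the Polr1b transcripts also occur in other genes, so that some of its reads may not have been counted.

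The snoRNP proteins showed the widest gap between ORS-like and Dlx3/Msx2-high cells. As a group they summed to 794 against 1595 CPM in PADI4 WT and to 848 against 1620 CPM in PADI4 cKO, and ORS-like cells were at -0.86 and -0.88 on the log2 scale relative to the other gated cells. Nop58, a scaffold of the box C/D particles, was at 159 CPM in ORS-like and 289 CPM in Dlx3/Msx2-high cells of PADI4 WT, and at 174 and 317 CPM in PADI4 cKO. Fbl, the fibrillarin methyltransferase of the same particles, was at 130 and 241 CPM in PADI4 WT and at 130 and 237 CPM in PADI4 cKO. Fbl shares 72.6% of its 31-base stretches at the transcript end with other genes, the highest share of the 49.

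The box H/ACA side of the group was low in ORS-like cells as well, with highest levels in different classes. Nhp2, which binds the guide RNA of these particles, was at 94.2 and 94.9 CPM in ORS-like cells and highest in IRS-like cells, at 243 and 240 CPM, with log2 ratios of -1.14 and -1.10 in ORS-like cells. Nolc1, a chaperone of both kinds of particle, was at 68.1 and 75.7 CPM in ORS-like cells. Its highest levels were 159 CPM in Dlx3/Msx2-high cells of PADI4 WT and 187 CPM in SG-like cells of PADI4 cKO. The remaining 4 genes of the snoRNP group, Nop56, Dkc1, Nop10 and Gar1, had ORS-like log2 ratios of -0.57 or lower in both libraries. Nop10 was highest in SG-like cells, at 199 and 219 CPM.

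Npm1 and Ncl dominated the summed level. Together they contributed 42.6% and 41.8% of the UMIs of the 49 genes in the gated cells, and without them the order still ran from 2273 CPM in ORS-like to 4134 CPM in Dlx3/Msx2-high cells of PADI4 WT. Npm1, the histone and ribosome chaperone nucleophosmin, was at 1120 CPM in ORS-like and 1989 CPM in LPC-like cells of PADI4 WT, and at 1094 and 1857 CPM in PADI4 cKO, where Med-like cells were highest at 2089.9 CPM. Ncl, the RNA-binding nucleolin, was at 530 CPM in ORS-like and 1134 CPM in LPC-like cells of PADI4 WT and at 586 and 1201 CPM in PADI4 cKO. Ddx21, a helicase of the nucleolus, was lowest in ORS-like cells too, at 47.2 and 55.9 CPM, and was highest in Dlx3/Msx2-high cells of PADI4 WT (114 CPM) and IRS-like cells of PADI4 cKO (125 CPM). Mybbp1a, the remaining gene of this group, had ORS-like ratios of -0.80 in both libraries.

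Among the 18 small subunit factors, the ORS-like level was -0.65 and -0.61 for the group as a whole. Wdr43, a component of the small subunit processome with the most UMIs of the group, was at 68.1 CPM in ORS-like and 135 CPM in Dlx3/Msx2-high cells of PADI4 WT, and at 80.8 and 134 CPM in PADI4 cKO. Utp3, of the same complex, varied less, from 71.8 CPM (uHF-like) to 111 CPM (IRS-like) in PADI4 WT and from 69.6 CPM (ORS-like) to 110 CPM (IRS-like) in PADI4 cKO. Utp11 was nearly flat, with ORS-like ratios of -0.02 and -0.18, the smallest of the group. At the other end were Rrp12, which acts in export and maturation of pre-ribosomes, and Tsr1, a late assembly factor. Rrp12 was at 5.75 and 6.84 CPM in ORS-like cells against highest levels of 16.9 CPM in Dlx3/Msx2-high cells of PADI4 WT and 19.4 CPM in IRS-like cells of PADI4 cKO. Tsr1 was at 15.4 and 16.8 CPM in ORS-like cells, with highest levels of 38.6 CPM in Med-like cells of PADI4 WT and 43.1 CPM in SG-like cells of PADI4 cKO. These 2 genes rest on few molecules, and Rrp12 had as few as 14 UMIs in the smallest class.

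The 13 large subunit factors stood at -0.76 and -0.74 in ORS-like cells as a group. Wdr12, which with Pes1 and Bop1 forms the PeBoW complex, had the widest range of all 49 genes. It was at 33.8 CPM in ORS-like cells of PADI4 WT and about as low in those of PADI4 cKO, between 50.9 and 72.6 CPM in uHF-like, IFE-like and SG-like cells, and at 119 and 118 CPM in IRS-like cells, where it was past 0.5 in both libraries together with Utp14a, a processome component. There 3 genes in PADI4 WT and 4 in PADI4 cKO were past 0.5, beside 10.3% and 11.3% of all genes compared. The partners of Wdr12 varied less, with ORS-like ratios of -1.44 and -1.41 for Wdr12, -0.60 and -0.62 for Pes1, and -0.65 and -0.47 for Bop1. Wdr12 shares 33.7% of its 31-base stretches at the transcript end with other genes.

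Gnl3, encoding the GTP-binding nucleostemin, was at 65.6 and 77.3 CPM in ORS-like cells and at 161 and 172 CPM in Dlx3/Msx2-high cells. Rrs1, needed for assembly of the large subunit, was highest in Med-like cells at 94.8 and 100.6 CPM, where it was the 1 gene past 0.5 in both libraries, and lowest in ORS-like cells at 39.3 and 41.7 CPM. Past 0.5 in Med-like cells were 3 genes in PADI4 WT and 1 in PADI4 cKO, beside 6.17% and 5.41% of all genes compared. Rrp1 was the most even of the 13, from 116 to 152 CPM in PADI4 WT and from 114 to 156 CPM in PADI4 cKO.

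The other classes with low levels were less uniform. In uHF-like cells 18 genes in PADI4 WT and 7 in PADI4 cKO were past -0.5, where 14.5% and 14.7% of all genes compared were, and 4 were past it in both. In IFE-like cells 12 and 6 genes were past -0.5 beside 12.8% and 13.4% of all genes, and 5 were past it in both. In Dlx3/Msx2-high cells 48 genes lay above 0 in both libraries but the shifts were small: 7 and 0 genes were past 0.5, beside 6.45% and 7.33% of all genes compared. Cells that no gate took stood at 6283 and 6576 CPM, and cells with at least 10 UMIs of the hair shaft keratin Krt35, a group formed after the data were seen, stood at 6147 and 6033 CPM.

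Genes of the same pathway outside the 49 were also low in ORS-like cells. Of 90 other ribosome biogenesis genes, 46 in PADI4 WT and 39 in PADI4 cKO were past -0.5 in ORS-like cells, with medians of -0.51 and -0.46. In Dlx3/Msx2-high cells their medians were 0.26 and 0.19. The summed ribosomal protein mRNAs varied far less, at -0.11 and -0.06 in ORS-like cells. Cell cycle genes were also low there: 21 and 27 of 43 S phase genes and 45 and 52 of 54 G2M genes were past -0.5.

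The mRNAs of the MYC family differed between classes as well. In PADI4 WT and PADI4 cKO, Mycl was at 100.5 and 104 CPM in Dlx3/Msx2-high cells and at 85.5 and 95.4 CPM in Med-like cells, but at 2.95 and 2.26 CPM in ORS-like cells, where it had 41 and 34 UMIs. Mycn was highest in LPC-like cells, at 106 and 113 CPM, and lower in ORS-like cells, at 34.6 and 43.0 CPM. Myc itself was highest in IRS-like cells (29.7 and 33.4 CPM) and SG-like cells (28.5 and 36.9 CPM) and lowest in ORS-like cells, at 3.38 and 3.65 CPM. ORS-like cells were thus low in Myc and Mycl mRNA, and the members of the family were not highest in 1 class. Mxd4, a MAX partner that opposes MYC, had the opposite order, at 67.0 and 66.0 CPM in ORS-like cells and at 24.6 and 19.1 CPM in Dlx3/Msx2-high cells. Max, the shared partner, was also highest in ORS-like cells, with log2 ratios of 0.40 and 0.33.

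**Figure D2:**
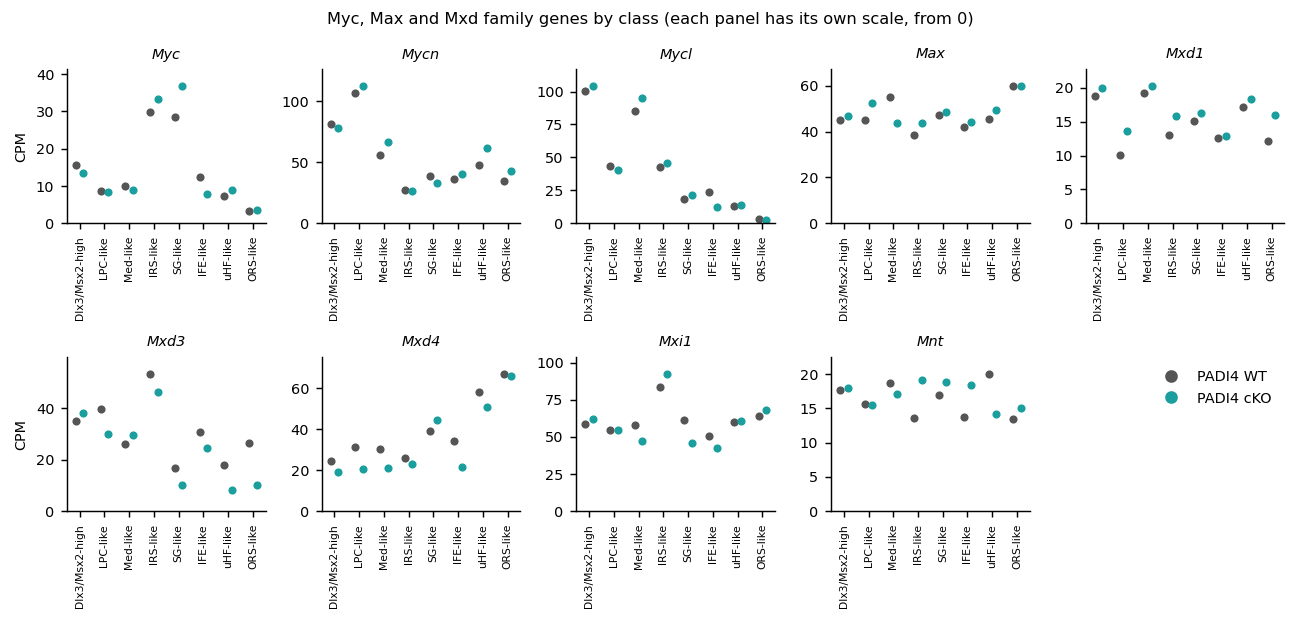
CPM of 9 genes of the Myc, Max and Mxd network in each class, 1 point per library (grey, PADI4 WT; teal, PADI4 cKO), with a separate vertical scale from 0 in each panel. Mycl falls to 2.95 and 2.26 CPM in ORS-like cells, where Mxd4 is at its highest, 67.0 and 66.0 CPM.

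Proliferation was examined next, with each cell called G1, S or G2M from cell cycle lists that hold none of the 49 genes. In all 16 combinations of class and library the summed level was lowest in G1, higher in G2M and highest in S phase. The log2 ratio of S over G1 cells ran from 0.21 in SG-like cells to 0.67 in IRS-like cells, both of PADI4 cKO, and that of G2M over G1 from 0.074 (LPC-like) to 0.49 (Med-like, PADI4 WT). ORS-like cells went from 3321 CPM in G1 through 4130.2 CPM in G2M to 5179 CPM in S phase in PADI4 WT, and from 3542 through 4507 to 5284 CPM in PADI4 cKO. In these cells 30 of 46 genes with enough UMIs were past 0.5 in S over G1 in PADI4 WT, and 23 of 48 were in PADI4 cKO, where 13.0% and 11.9% of all genes compared were.

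**Figure D3:**
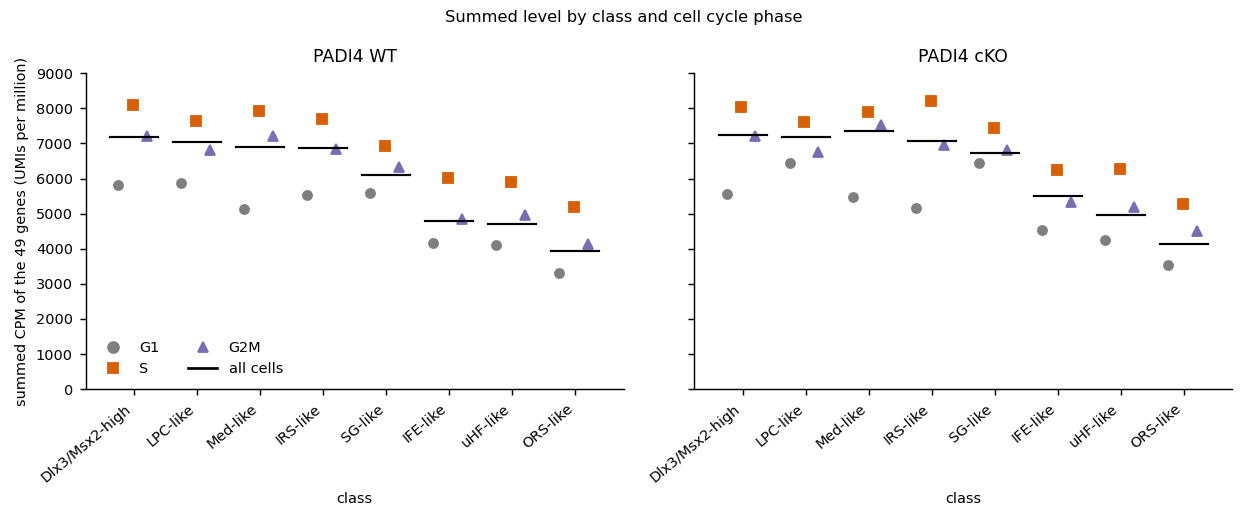
Summed CPM of the 49 genes (vertical axis, from 0) by class in G1 cells (circles), S cells (squares) and G2M cells (triangles) of PADI4 WT (left) and PADI4 cKO (right), with bars at the level over all phases. S phase is highest in every class, and ORS-like cells are lowest in each phase, from 3321 CPM in G1 to 5179 CPM in S in PADI4 WT.

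The response to phase was uneven among the 49 genes. Taking each gene's median over classes, 44 genes in PADI4 WT and 43 in PADI4 cKO were above 0 in S over G1, and 13 were past 0.5 in both libraries. Over all genes compared 42.4% and 41.6% had medians above 0, and 8.35% were past 0.5 in both. The 13 became 4 when cells with and without Mki67 or Top2a UMIs were compared in place of the phase calls. By the mean of the medians in both libraries, Tcof1 differed most, with medians of 1.07 and 1.16. It was followed by the snoRNP genes Nop56 (1.00 and 1.03) and Nolc1 (0.91 and 0.86). Tcof1 stayed high in G2M, at 0.96 and 1.19, whereas Nolc1 was at 0.37 and 0.46 there. At the other end were small subunit factors: Rrp7a was at -0.21 and -0.16, Wdr3 at 0.02 and -0.25, and Nob1, the nuclease that completes the small subunit RNA, at -0.07 and -0.095.

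The phases were not equally represented in the classes. G1 cells made up 67.0% and 70.9% of ORS-like, 62.8% and 67.4% of uHF-like and 63.2% and 69.0% of SG-like cells, but 24.1% and 18.1% of Dlx3/Msx2-high and 15.5% and 17.3% of LPC-like cells. Within G1 alone ORS-like cells were still the lowest class, at 3321 and 3542 CPM, followed by uHF-like cells at 4109 and 4239 CPM, and 39 and 40 genes were past -0.5 in ORS-like cells, where 16.4% and 16.1% of all genes compared were. SG-like cells stood apart from the other G1-rich classes: their G1 cells were at 5599 and 6439 CPM, close to or above the G1 cells of Dlx3/Msx2-high (5803 and 5562 CPM). A low share of cycling cells did not go with a low level in every class.

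UMIs per cell also differed between classes, with medians from 10310.5 in ORS-like to 19512 in LPC-like cells of PADI4 WT. Cells of each class were ordered by their UMIs and divided into 5 bins of equal cell number. In ORS-like cells the summed level rose from 2949 CPM in the lowest bin to 4546 CPM in the highest in PADI4 WT and from 3131 to 4855 CPM in PADI4 cKO, while the share of G1 cells dropped from 83.2% to 21.8% and from 92.3% to 33.3%. In LPC-like cells of PADI4 WT it rose from 6325 to 7541 CPM in bin 4 and was 6747 CPM in bin 5, the highest. The highest bin was above the lowest in all 16 combinations, by 0.087 (IRS-like, PADI4 WT) to 0.63 (ORS-like, PADI4 cKO) on the log2 scale.

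**Figure D4:**
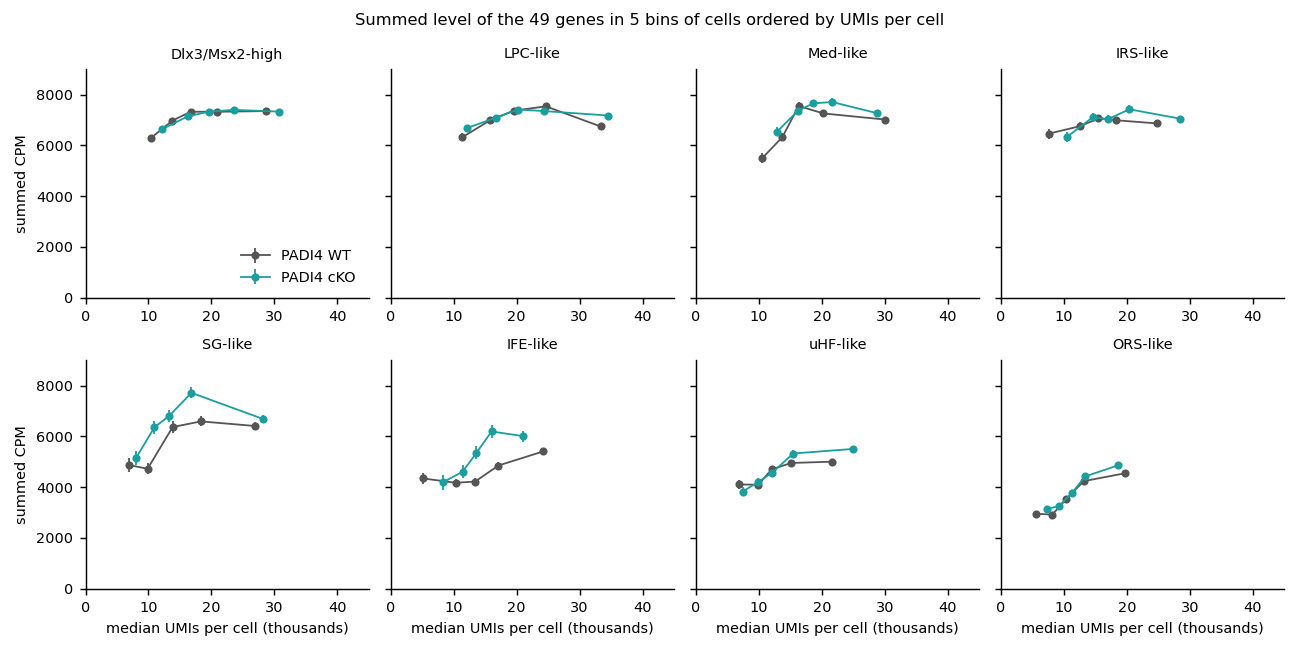
Summed CPM of the 49 genes (vertical axis, with exact 95% Poisson intervals) against the median UMIs per cell of each of 5 bins of cells, by class and library (grey, PADI4 WT; teal, PADI4 cKO). In ORS-like cells the curve goes from 2949 to 4546 CPM in PADI4 WT, and in Dlx3/Msx2-high cells from 6290 to 7355 CPM.

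Gene by gene, 21 of 44 and 22 of 46 genes compared in ORS-like cells were past 0.5 in the highest over the lowest bin, beside 18.8% and 16.5% of all genes compared. Over classes 2 genes had medians past 0.5 in both libraries, Tcof1 (0.84 and 0.81) and Ncl (0.56 and 0.73), beside 5.86% of all genes compared. This count of 2 became 4 among G1 cells and 1 with CPM computed without mitochondrial, ribosomal protein and keratin genes. Rrp12 (0.44 and 0.68) rested on 1 class in each library. By the mean of the medians in both libraries, the lowest were Wdr3 (0.04 and -0.53), Rrp9 (-0.21 and -0.10) and Polr1e (-0.099 and -0.17), which were compared in few classes.

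Among cells of 10000 to 15000 UMIs, a window set after the data were seen, ORS-like cells remained lowest, at 3975 and 4078 CPM, beside 6685 and 6634 CPM in Dlx3/Msx2-high cells. The next lowest class was near in PADI4 WT, where IFE-like cells were at 4180.3 CPM, and in PADI4 cKO uHF-like cells were at 4660.3 CPM. In ORS-like cells of this window 33 genes in each library were past -0.5, beside 15.7% and 15.9% of all genes compared. With both the window and G1 applied, ORS-like cells were at 3626 and 3646 CPM, Dlx3/Msx2-high cells at 5767 and 5535 CPM, and SG-like cells at 5759 and 6921 CPM. The next lowest were again IFE-like cells in PADI4 WT, at 3903 CPM, and uHF-like cells in PADI4 cKO, at 4329 CPM. In ORS-like cells 25 of 48 and 32 of 47 genes were then past -0.5, beside 15.2% and 14.7% of all genes compared. Among S phase cells of the window, ORS-like cells of PADI4 WT were at 4934 CPM (interval 4807 to 5064). The 19 IFE-like cells there were at 5097 CPM (4822 to 5384), so the intervals overlapped. In PADI4 cKO the values were 5124 and 5743 CPM. ORS-like cells thus remained lowest when phase and depth were held within these limits, by a smaller margin in PADI4 WT. Among the G1 cells of the window 21 genes rather than 37 were past -0.5 in both libraries.

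The genotypes were compared class by class, to ask whether transcripts for ribosome biogenesis differed where Padi4 had been deleted. Over all epithelial cells the 49 genes summed to 6149 CPM in PADI4 WT and 6455 CPM in PADI4 cKO, a log2 ratio of 0.070 (exact interval 0.066 to 0.075). Here 42 of 49 genes were above 0 with a median of 0.073, beside a median of -0.014 and 45.5% of genes above 0 over all genes compared. None of the 49 was past 0.5 in either direction, where 1.64% of all genes were past it upwards and 3.82% downwards. By class the summed ratio was 0.013 in Dlx3/Msx2-high, 0.032 in LPC-like, 0.037 in IRS-like, 0.072 in uHF-like, 0.074 in ORS-like, 0.094 in Med-like, 0.14 in SG-like and 0.20 in IFE-like cells. Within G1 the sign turned in Dlx3/Msx2-high cells, at -0.061 (interval -0.093 to -0.030), and in IRS-like cells, at -0.10 (-0.16 to -0.041). The other classes stayed above 0 within G1, from 0.045 in uHF-like to 0.20 in SG-like cells. LPC-like cells were at 0.13 (0.084 to 0.17) there, and all epithelial cells together were at 0.057 (0.047 to 0.067).

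Among Xist-only cells the summed ratio was near 0 over all epithelial cells, with classes on either side of it. Over all epithelial Xist-only cells (2077 and 7182) the summed ratio was 0.0016 (interval -0.0055 to 0.0087). Above 0 were 25 of 49 genes, beside 50.5% of all genes compared. By class it was -0.063 (interval -0.087 to -0.039) in LPC-like and -0.095 (-0.14 to -0.051) in uHF-like cells. In ORS-like cells it was -0.027 (-0.052 to -0.0017) and in IFE-like cells -0.026 (-0.086 to 0.034). It was 0.042 (0.011 to 0.072) in IRS-like and 0.092 (0.039 to 0.15) in SG-like cells. In Dlx3/Msx2-high and Med-like cells it was 0.0030 and 0.020, with 0 inside each interval. PADI4 WT gave only 37 SG-like, 43 IFE-like and 76 uHF-like Xist-only cells. Within PADI4 WT alone, Xist-only cells were above Y-only cells by 0.096 (interval 0.089 to 0.10), with 42 of 49 genes above 0. The median of the 49 was 0.12, beside -0.012 over all genes compared, and 32.7% against 39.5% of cells were in G1. The difference between cells of either sex inside 1 library was thus as large as that between the libraries. Since the animals behind the PADI4 WT cells of each sex are also different animals, and the PADI4 cKO library held no Y-only cells, genotype, sex, animal and library cannot be told apart in the comparison over all cells.

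**Figure D5:**
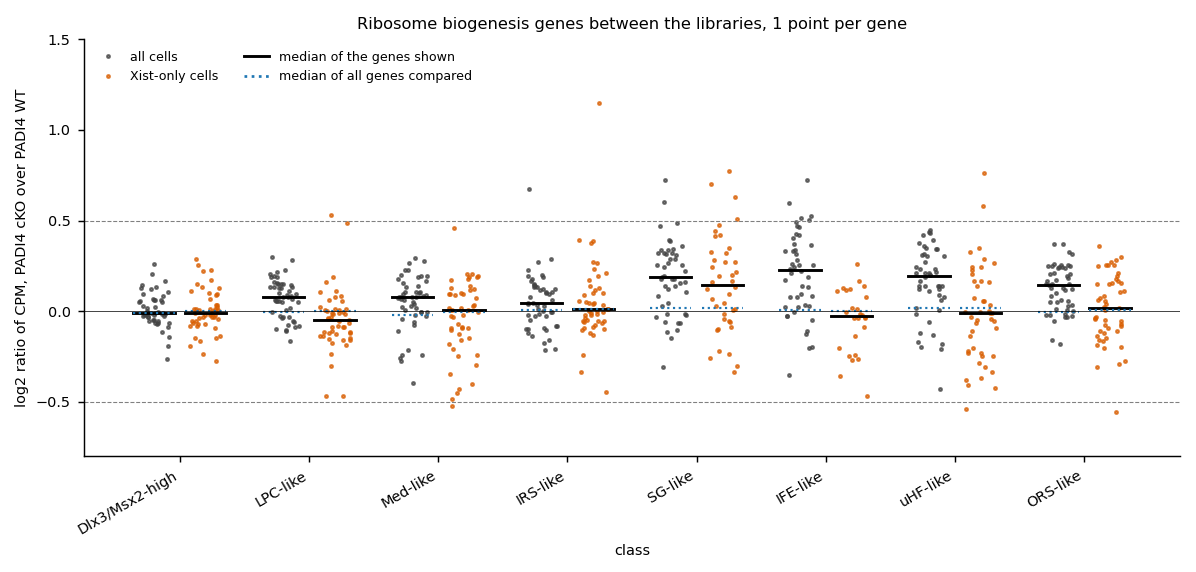
Log2 ratio of CPM, PADI4 cKO over PADI4 WT, with 1 point per gene, for all cells (grey) and Xist-only cells (orange) of each class, with the median of the genes shown (black bar), the median of all genes compared (dotted) and dashed lines at 0.5 and -0.5. Medians lie at 0.080 in LPC-like and 0.23 in IFE-like cells over all cells, and at -0.048 and -0.027 among Xist-only cells.

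Counting each gene in each class with at least 100 UMIs, 270 of 386 pairs (69.9%) were above 0 over all cells and 173 of 356 (48.6%) among Xist-only cells. Of all genes compared in a class, 45.6% (Med-like) to 53.9% (uHF-like) were above 0 over all cells. Among Xist-only cells 48.6% (Med-like) to 52.7% (IRS-like) were. Without IFE-like cells, which differed in kind between the libraries, 233 of 340 pairs (68.5%) were above 0. Past 0.5 were 8 pairs, none of them downwards: Rrp12 in IRS-like cells (0.67), Nop58 (0.50), Wdr75 (0.60), Bop1 (0.72), Noc2l (0.53) and Gnl3 (0.52) in IFE-like cells, and Tsr1 (0.72) and Nop16 (0.60) in SG-like cells. In those classes 1.71%, 6.75% and 2.72% of all genes compared were past 0.5, and 1.31%, 8.30% and 3.57% were past -0.5. Among Xist-only cells 8 pairs were past 0.5 and 3 past -0.5. Upwards these were Noc2l in LPC-like, Rrp12 in IRS-like, Nolc1 and Bop1 in uHF-like, and Polr1c, Nop14, Tsr1 and Noc2l in SG-like cells, where 5.52%, 4.13%, 8.0% and 7.13% of all genes compared were past 0.5. Downwards they were Polr1c in Med-like, Noc4l in ORS-like and Wdr75 in uHF-like cells, where 4.26%, 3.21% and 5.31% were past -0.5. None of the 26 genes compared in Xist-only IFE-like cells was past 0.5 in either direction. The shift over all IFE-like cells went with a different phase makeup, with 19.5% of PADI4 WT and 42.2% of PADI4 cKO cells in S phase. Among their G1 cells (157 and 50) the summed ratio was 0.12 (interval 0.056 to 0.18), beside 0.20 over all phases. The part of phase in the shift was not tested.

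Rrp15, Rrp9 and Rrs1, assembly factors of both subunits, were examined in LPC-like cells. Rrp15 went from 69.4 CPM (704 UMIs) in PADI4 WT to 76.1 CPM (1071 UMIs) in PADI4 cKO, a log2 ratio of 0.13 (interval -0.0056 to 0.27). Rrp9 went from 25.0 to 27.4 CPM (0.13, -0.10 to 0.37). Rrs1 went from 67.7 to 71.6 CPM (0.080, -0.061 to 0.22). All 3 intervals included 0, and none of the 3 reached 0.5. Among Xist-only LPC-like cells the ratios were -0.083 (-0.31 to 0.16) for Rrp15, -0.14 (-0.51 to 0.27) for Rrp9 and -0.18 (-0.41 to 0.056) for Rrs1, again with 0 inside each interval.

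The genes with the highest medians over classes were Noc2l (0.28), Gnl3 (0.23), Nop58 (0.23), Rrp1b (0.23) and Bop1 (0.21), of which the first 4 were above 0 in all 8 classes. Over all epithelial cells Noc2l, a factor in transport of large subunit precursors, was at 44.2 CPM in PADI4 WT and 52.7 CPM in PADI4 cKO, a log2 ratio of 0.25 (interval 0.20 to 0.31). Unlike the sum, its ratio was also above 0 among Xist-only cells, at 0.29 (0.21 to 0.38). In the LPC-like cells of that group, 120 of them in PADI4 WT, it was 0.53 (0.23 to 0.87), the highest of the 49 genes. There 5.52% of all genes compared were past 0.5 upwards. Over all LPC-like cells the highest of the 49 genes was at 0.30. Genotype, animal and library cannot be told apart among Xist-only cells either. Noc2l shares 15.3% of its 31-base stretches at the transcript end with other genes. Among Xist-only epithelial cells Bop1 was at 0.14 and Gnl3 at 0.083, while Nop58 (0.025) and Rrp1b (-0.012) had intervals that included 0. The lowest medians over classes were those of Ubtf (-0.059), Utp11 (-0.041), Noc3l (-0.037), Rrp1 (-0.020) and Npm1 (-0.019), all small in size.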

How the data were processed

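The authors deposited raw UMI counts for all droplets (10x 3′ v3.1 chemistry, Cell Ranger 7.1.0 per the file headers, mm10 per the submitters' processing notes, which also list Scanpy). Cells were kept by the study's limits: 2000 to 60000 UMIs, 1000 to 8000 genes, at most 20% mitochondrial and 1% hemoglobin UMIs, and the 5th to 99th percentile of ribosomal counts. CellBender and Harmony were not run, and doublets (Scrublet, 3.20% and 4.02%) were kept. Cells were gated on the mean scaled marker score (at least 0.5, leading by 0.25), UMIs were summed per class and library, and log2 ratios of CPM took 0.5 UMI added and exact binomial 95% intervals, with 0.5 as the size threshold and at least 100 UMIs per gene. No p-values are given, since each genotype was 1 library. The scripts were tested on simulated data. Alternatives covered cell limits, gates, clusters, scaling, empty-droplet subtraction, thinning, phase and sex. The genes, lists and tests were chosen with earlier results of these data known. Named are the 2 genes with most UMIs and the 2 with the widest class range per role, the 5 highest and 5 lowest between genotypes, those past 0.5, Rrp15, Rrp9 and Rrs1 (named in the study's text), and the 3 highest and 3 lowest by phase and by depth. Shared sequence was taken from 31-base stretches at the transcript ends of the 49 genes, searched in all GENCODE vM21 transcripts, and 9 of the 49 genes shared over 10%. Protein sequence features were not analysed here. Total UMIs were 143938990 in PADI4 WT and 143945294 in PADI4 cKO. Python 3.11.15, numpy 2.4.6, scipy 1.17.1, pandas 2.3.3 and Scanpy 1.11.5 were used.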

Additional observations from a re-analysis of the deposited data

Results flagged for a closer look

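For 3 genes the log2 ratio of PADI4 cKO over PADI4 WT had intervals on opposite sides of 0 in different classes. The difference between classes was not tested, since each genotype was 1 library, and the intervals cover counting error only. Nhp2 was at 0.23 in IFE-like cells but at -0.12 in Dlx3/Msx2-high and -0.083 in LPC-like cells. Npm1 was at 0.078 in Med-like and 0.085 in IFE-like cells, and at -0.031 in Dlx3/Msx2-high, -0.099 in LPC-like, -0.034 in ORS-like and -0.17 in uHF-like cells. Rrp12 was at 0.67 in IRS-like cells, from 88 and 117 UMIs, and at -0.27 in Dlx3/Msx2-high cells.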

How the results depend on the processing

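No paired analysis was possible because each genotype was 1 library, and for the same reason no replicate could be left out. ORS-like cells were below the other gated cells under every alternative run, at -0.88 to -0.46 in PADI4 WT and -0.87 to -0.57 in PADI4 cKO. The 37 genes past -0.5 there in both libraries fell to 21 among G1 cells of 10000 to 15000 UMIs, and this count stayed within 1.5 times the reported one under the other alternatives. The 8 gene and class pairs past 0.5 between the libraries became 13 with a limit of 4000 UMIs per cell. They became 14 with named clusters in place of the gate, 21 among G1 cells and 22 among Xist-only G1 cells. With at least 500 UMIs per gene they became 2. All 8 were upwards, whereas the 21 among G1 cells were 20 upwards and 1 downwards. The share of all genes past 0.5 is not given for these alternatives. The counts therefore do not tell counting noise in smaller subsets from a difference between the libraries. The 270 pairs above 0 became 138 after thinning to 2000 UMIs, 173 among Xist-only cells, 113 among Xist-only G1 cells and 179 with at least 500 UMIs per gene. Fewer pairs can be compared under thinning, cell subsets and the higher UMI limit by construction. Otherwise the cause was not tested. The summed ratio between libraries changed sign among G1 cells in Dlx3/Msx2-high (-0.061) and IRS-like cells (-0.10). It changed sign among Xist-only cells in LPC-like (-0.063), ORS-like (-0.027), uHF-like (-0.095) and IFE-like cells (-0.026). Among Xist-only G1 cells it was -0.012 in Dlx3/Msx2-high, -0.046 in LPC-like, -0.017 in Med-like, -0.0037 in IRS-like, -0.0015 in ORS-like, -0.14 in uHF-like and -0.082 in IFE-like cells. Only SG-like cells kept their sign under all alternatives run, at 0.092 to 0.21. The 13 genes with medians past 0.5 in S over G1 became 4 when cells with and without Mki67 or Top2a UMIs were compared and 8 after thinning. The 2 genes with such medians by UMIs per cell became 4 among G1 cells and 1 with CPM computed without mitochondrial, ribosomal protein and keratin genes.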

Other observations

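The remaining members of the MAX network did not share the order of Mxd4. In PADI4 WT and PADI4 cKO, Mxd3 was highest in IRS-like cells, at 53.3 and 46.4 CPM, and lower in SG-like cells, at 16.9 and 10.3 CPM. Mxi1 was highest in IRS-like cells too, at 83.7 and 92.5 CPM, beside 63.9 and 68.2 CPM in ORS-like cells. Mxd1 lay at up to 20.3 CPM and Mnt between 13.5 and 20.0 CPM in every class of both libraries.

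Droplets without a cell carried ribosome biogenesis transcripts at nearly the level of the epithelial cells, 6078 and 6403 CPM. For the 49 genes, the upper limit of the share from RNA outside the cells was 7.41% in PADI4 WT and 6.55% in PADI4 cKO. The 112 and 87 cells with markers of other cell types stood at 5226 and 5328 CPM.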
